A study of Mus musculus with 2 samples.

Results

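The translation factors described here are the genes whose symbol begins with Eif (eukaryotic initiation factor) or Eef (eukaryotic elongation factor) followed by a digit. Probe sets, the groups of short probes that together report 1 transcript, were taken where the platform annotation gave exactly 1 such symbol. Eif2s3x, Eif2s3y, Eef2k and the Eif2ak kinases were left out by the same rule. This gave 104 of the 22690 probe sets on the array, for 45 of 12393 genes, of which 36 were initiation and 9 elongation factor genes.

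The RNA came from spleen CD4+ T cells of DBA/1 mice, a strain susceptible to arthritis induced by glucose-6-phosphate isomerase (GPI), and of C57BL/6 mice, a resistant strain. Both strains had received GPI and were sampled on day 7, and the cells were enriched with magnetic beads. There was 1 array per strain, so no value has a replicate error and no difference has a test across mice. The sources used here do not give the age or number of the mice or any genotype beyond the strain name, and unimmunised mice were not analysed here.

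Initiation factors bring the start transfer RNA, the messenger RNA and the ribosomal subunits together. The factor eIF2 delivers the start transfer RNA and eIF2B recharges eIF2 with GTP. The large complex eIF3 organises the small subunit, and the eIF4 group binds the cap of the messenger and unwinds it. Elongation factors then work at every codon: eEF1A brings each aminoacyl transfer RNA, the eEF1B subunits recharge eEF1A, and eEF2 moves the ribosome along. T cells raise protein synthesis steeply when they leave the resting state, and this machinery is the means by which they do so.

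Elongation factor messengers are known for a tract of pyrimidines at their start, the TOP tract, and many housekeeping genes carry sites of the ETS family of transcription factors in their promoters. RefSeq promoter sequences (GRCm38.p6, 250 bases before to 50 bases after the annotated start) were at hand for 35 of the 45 genes. The ETS core CCGGAAG was searched on both strands and was found in 13 of the 35 (37.1%), beside 12.9% of 17492 protein-coding genes with such a sequence. In the 60 bases from 40 before to 20 after the start it was found in 6 of 35 (17.1%), beside 6.07% of all. In the same 60 bases the pyrimidine motif CTCTT, searched on the gene strand, was found in 6 of 35 (17.1%), beside 9.25% of all; it can overlap the reverse complement of the ETS core. Of the sequences below, the first 2 show the pyrimidine motif in an elongation factor and an eIF3 subunit, and the last 3 show the ETS core close to the start of genes from 3 steps of translation. Capitals mark the motif.
Eef2: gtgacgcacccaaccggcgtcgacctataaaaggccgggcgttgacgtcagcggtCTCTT
Eif3f: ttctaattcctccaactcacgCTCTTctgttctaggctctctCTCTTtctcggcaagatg
Eef1b2: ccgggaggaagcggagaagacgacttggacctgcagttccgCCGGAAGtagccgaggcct
Eif4e2: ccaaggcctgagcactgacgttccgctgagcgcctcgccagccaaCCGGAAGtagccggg
Eif2b4: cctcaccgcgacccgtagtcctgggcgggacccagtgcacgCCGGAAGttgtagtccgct
These windows lie at chr10:81176591-81176650 (+ strand), chr7:108934375-108934434 (+), chr1:63176791-63176850 (+), chr1:87213871-87213930 (+) and chr5:31193120-31193179 (- strand). A match describes the letters and does not show that a factor binds there. CTCTT was counted anywhere in the 60 bases, so a match does not show a TOP tract at the start of the messenger. Members with and without the ETS core in the 300 bases had median log2 ratios between the strains of 0.093 over 13 genes and 0.072 over 20. For the ETS core in the 60 bases, the medians were 0.16 over 6 genes with it and 0.086 over 27 without. For CTCTT in the 60 bases they were 0.096 over 6 and 0.056 over 27. These differences were not tested.

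The deposited values are intensities on a linear scale, and strains are compared by the log2 of DBA/1 signal divided by C57BL/6 signal, so a value above 0 is higher in DBA/1. Signals below the median of an array (37.6 for DBA/1 and 38.04 for C57BL/6) were set to that floor. Where a probe set lay over the floor in each strain, its log2 ratio had a median of 0.085, an offset of 1.06-fold towards DBA/1 at the median probe set. It was not the same at every signal: a lowess curve on signal moved single genes by -0.16 to 0.051. Over 2325 genes with at least 2 usable probe sets, the difference between their log2 ratios corresponded to an error of 0.31 per probe set; over the 23 such translation factor genes it was 0.19. This error is that of the probes; the spread between animals, cell isolations and labellings was not measured. The T cell markers were near equal on the 2 arrays (913 and 857 for Cd4, DBA/1 first, and the 6 CD4 T cell markers had a median log2 ratio of -0.057). Markers of most other cells were not. The 8 measured neutrophil markers were all higher in DBA/1 (median 1.60, summed signal 33906 against 10510). So were 5 of 5 B cell markers (median 1.09, 1409 against 613) and 5 of 5 monocyte and macrophage markers (median 0.86, 4910 against 2059). The 2 CD8 markers were lower (69.0 against 277.0), and Alas2, the 1 erythroid marker above the floor, read 173 and 191 (-0.14). The 3 measured proliferation markers, which do not mark 1 cell type, were also higher in DBA/1 (median 0.69, 2123 against 1297). The part of other cells and of proliferation in the small differences below was not tested.

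Translation factor genes differed little between the strains. Of the 45 genes, 43 were above the floor on at least 1 array, and none of the 43 was 1.5-fold higher in either strain. Over all 6936 genes above the floor, 11.8% lay 1.5-fold or more higher in DBA/1 and 5.97% in C57BL/6, and at 2-fold the shares were 3.84% and 1.9%. Among the 3920 genes whose higher signal reached the 75th percentile of its array, which include 40 of the 43 factors, the shares past 1.5-fold were 12.3% and 4.97%. The log2 ratios of the 43 ran from -0.42 to 0.54 with a median of 0.10 and an SD of 0.21 over genes, close to the probe error of 0.19; the median over all genes was also 0.10, with an SD of 0.52. From the 10th to the 90th percentile the factors spanned 0.57 on the log2 scale, all genes 1.06 and the genes of high signal 1.02. At 1.2-fold, a limit chosen after the values were seen, 11 of the 43 factors were higher in DBA/1 and 1 in C57BL/6, where all genes gave 33.4% and 17.7%.

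**Figure D1:**
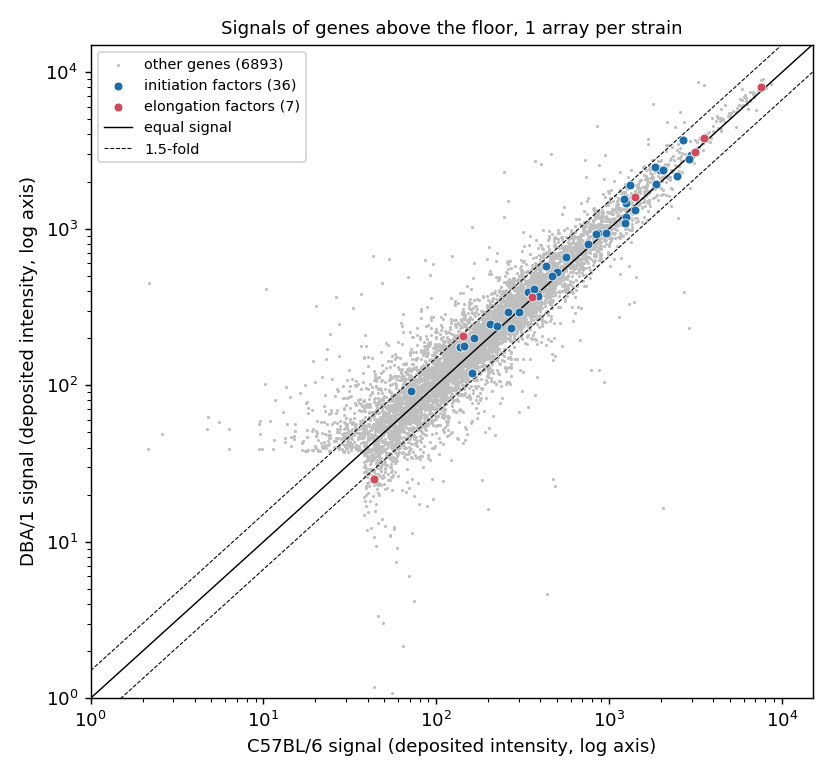
Signal of each gene above the floor in DBA/1 (vertical) against C57BL/6 (horizontal), deposited intensities on log axes, 1 array per strain; blue points are 36 initiation factors, red points 7 elongation factors, grey points other genes, and dashed lines mark 1.5-fold. The factors follow the line of equal signal; the 1 point outside the dashed lines is Eef1a2, whose DBA/1 signal of 25.2 is under the floor.

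Initiation and elongation factors had similar ratios. The median log2 ratio was 0.13 over 36 initiation factor genes and 0.088 over 7 elongation factor genes, a difference of -0.041. The SD over genes within each class was 0.21 and 0.23. Of the initiation factors 24 were above 0 and 12 below, and of the elongation factors 5 were above and 2 below. Over all 6936 genes, 4206 were above 0 and 2730 below. Measured from the offset of 0.085 instead, 22 of 36 and 4 of 7 were above it, beside 3586 of all 6936 genes. The single value of 0.085 is low for the factors: the lowess curve moved them by a median of -0.14 and all genes by -0.081. With the floor, the elongation factors ran from -0.22 to 0.52 and the initiation factors from -0.42 to 0.54, so the classes overlapped. The lower end of the elongation range is Eef1a2, a bound set by the floor, which lies at -0.80 without one. The upper end is Eef1akmt1, which modifies eEF1A, while the 5 eEF1 and eEF2 genes reached 0.19.

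**Figure D2:**
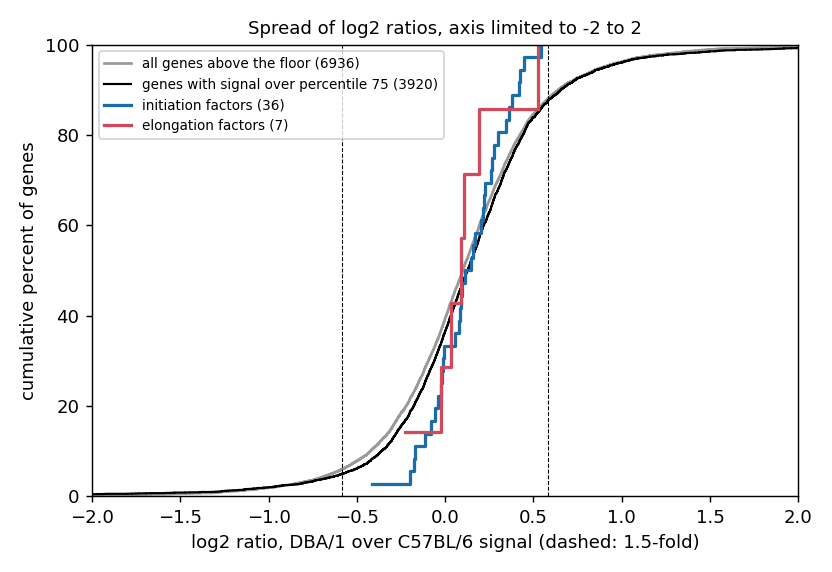
Cumulative percent of genes (vertical) against log2 ratio, DBA/1 over C57BL/6 (horizontal), for all genes above the floor (grey), genes of high signal (black), initiation factors (blue) and elongation factors (red); dashed lines mark 1.5-fold and the axis stops at -2 and 2. Both factor curves rise from their lowest to their highest gene between the dashed lines, while the curves of all genes begin before and end after them.

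Among the elongation factors proper, the abundant ones were near equal. Eef1a1, which carries transfer RNA to the ribosome in most tissues, read 8074 in DBA/1 and 7512 in C57BL/6, a log2 ratio of 0.10. Eef2, the translocase, read 3772 and 3549 (0.088). Both ratios lie close to the offset. Eef1b2, a nucleotide exchange subunit of eEF1B, read 3088 and 3142 (-0.025). Eef1d, another exchange subunit, read 1605 and 1406, and its 2 usable probe sets both gave 0.19. Eef1a2, the form of eEF1A known from muscle and neurons, read 25.2 in DBA/1, under the floor, and 43.9 in C57BL/6, just above it, so it was at least 1.17-fold higher in C57BL/6; this bound was set by the floor, and the 2 signals as deposited lie -0.80 apart on the log2 scale. A signal that low carries little weight.

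The other genes of the elongation group modify or accompany the factors. Eef1akmt1, a lysine methyltransferase of eEF1A, read 206 in DBA/1 and 143 in C57BL/6, 1.44-fold, the highest ratio of the group. Its 3 usable probe sets were all above the offset and gave a log2 ratio of 0.51 ± 0.25 (SD over 3 probe sets), from 0.25 to 0.75. Eef1e1, a scaffold protein of the complex of transfer RNA synthetases, read 367 and 358 (0.035). The methyltransferases Eef1aknmt and Eef2kmt were under the floor on both arrays and gave no ratio.

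The factors of the start site and the delivery of the first transfer RNA had ratios at and above the offset in DBA/1. Eif2s2, the beta subunit of eIF2, read 1916 in DBA/1 and 1317 in C57BL/6, 1.46-fold, the highest ratio of all 43 genes. Its 6 probe sets did not give 1 value, however: they averaged 0.21 ± 0.38 (SD over 6 probe sets) on the log2 scale, from -0.50 in a dim probe set (45.1 against 63.6) to 0.54 in the brightest. The 1.46-fold value therefore rests on the probe set chosen, and the mean over probe sets is 0.13 above the offset, with probe sets on both sides of it. Eif1ax, an eIF1A that scans for the start codon, read 577 and 429 (0.43), and its second probe set, dim at 57.4 and 58.5, gave -0.027. Eif1a, its near-identical relative, gave 0.28 and 0.63 in 2 probe sets, and signals of the pair may be mixed because the sequences are so alike. Eif1b, an eIF1, read 529 and 496 (0.093).

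The eIF2B exchange factor showed no common direction. Eif2b1, the alpha subunit, read 175 in DBA/1 and 138 in C57BL/6 (0.34), and Eif2b5, the catalytic epsilon subunit, read 179 and 145 (0.30). Eif2b4, the delta subunit, read 234 and 269 (-0.20). Eif2b2, the beta subunit, read 382 and 386 in its brightest probe set (-0.014), and all 3 of its probe sets lay below the offset, down to -0.38. Subunits of 1 complex thus lay on both sides of 0, each within 1.27-fold in the probe set used.

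The eIF3 complex was represented by 11 subunit genes, with a median log2 ratio of 0.15. Of these 8 were above 0 and 3 below, and 3 were over 1.2-fold higher in DBA/1. Over all 6936 genes, 4206 were above 0 and 33.4% were 1.2-fold higher in DBA/1. Eif3e read 3663 in DBA/1 and 2683 in C57BL/6, 1.37-fold. Its 3 usable probe sets agreed, with a log2 ratio of 0.45 ± 0.070 (SD over 3 probe sets) between 0.38 and 0.52. Each of the 3 was past 1.2-fold. Eif3k read 1555 and 1212 (0.36) in its single probe set. Eif3i read 2465 and 1848 (0.42), but its second probe set, at 1251 and 1402, gave -0.16. Eif3a, the scaffold subunit, read 1310 and 1415 (-0.11), with 4 probe sets from -0.20 to 0.22. The remaining subunits lay between -0.022 for Eif3b and 0.26 for Eif3h, and Eif3f, whose promoter is printed above, read 2961 and 2970 (-0.0047).

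**Figure D3:**
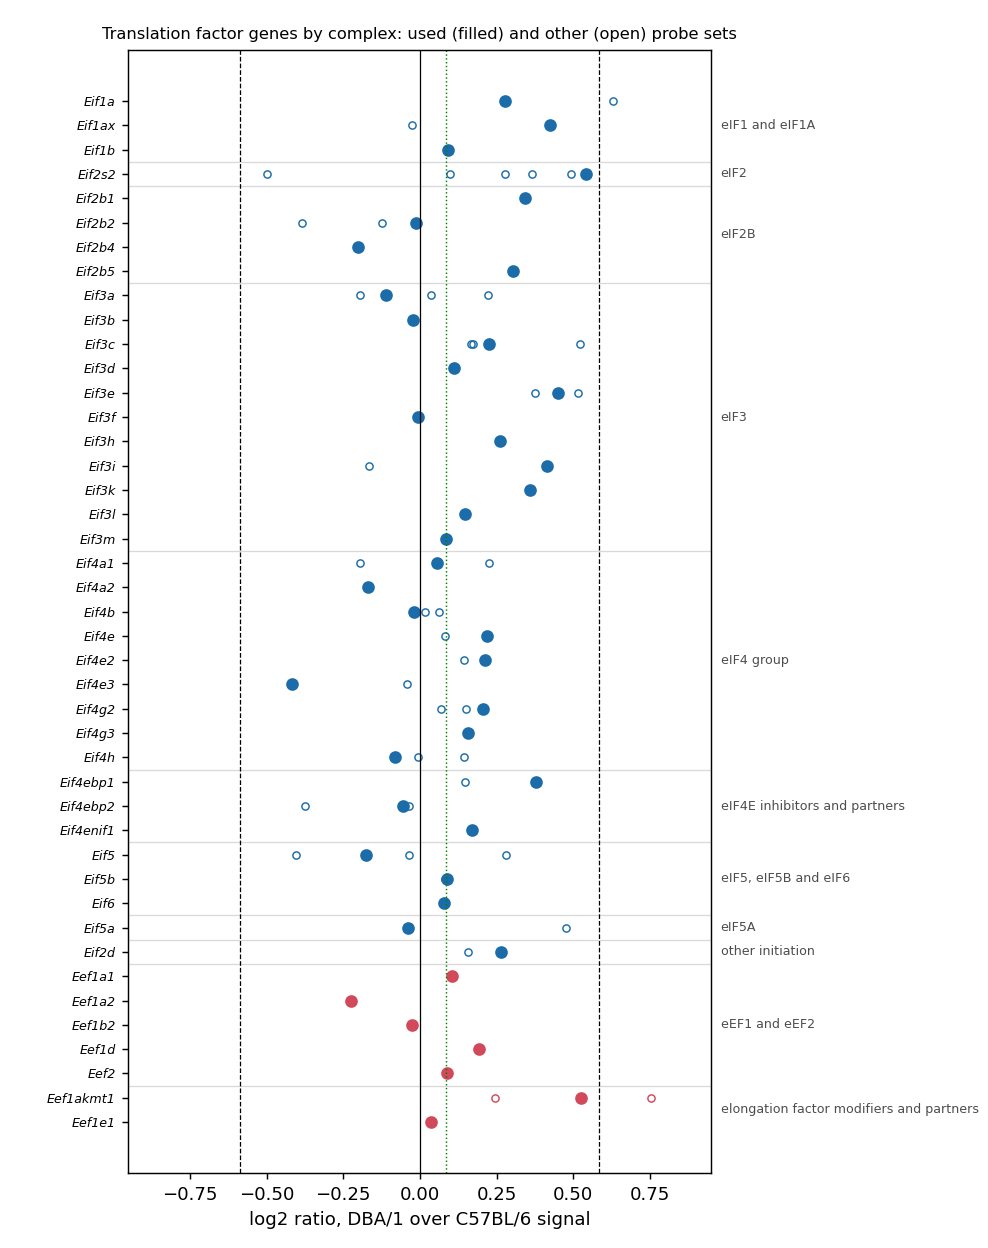
Log2 ratio, DBA/1 over C57BL/6 (horizontal), of the 43 factor genes above the floor, grouped by complex; filled points are the probe set used for each gene (the brightest), open points its other probe sets over the floor in each strain, blue initiation and red elongation factors. Dashed lines mark 1.5-fold and the green dotted line the offset of 0.085; no filled point crosses the dashed lines, and the 2 open points that do belong to Eif1a and Eef1akmt1.

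The cap-binding and helicase group had a median of 0.056 over 9 genes, nearer to 0 than that of the eIF3 subunits. Eif4a1, the main helicase, read 1944 in DBA/1 and 1870 in C57BL/6 (0.056), and its 3 probe sets lay between -0.20 and 0.23. Eif4a2, its close relative, read 2181 and 2452 (-0.17). Eif4e, the cap-binding protein, read 658 and 565 (0.22), with its second probe set at 0.083. The scaffold Eif4g3 read 412 and 369 (0.16), and Eif4g2, a scaffold homologue that does not bind eIF4E, read 2369 and 2054 (0.21). The helicase cofactor Eif4h read 1185 and 1252 (-0.080), and its 3 probe sets lay between -0.080 and 0.15. Eif4e3, a cap-binding relative of eIF4E, had the lowest ratio of the 42 genes over the floor in each strain: it read 120 in DBA/1 and 160 in C57BL/6, 1.33-fold higher in C57BL/6. Its second probe set read 122 and 126 (-0.043), so the 2 probe sets averaged -0.23 ± 0.26 (SD over 2 probe sets).

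Of the proteins that hold eIF4E back, Eif4ebp1 read 92.4 in DBA/1 and 71.2 in C57BL/6 (0.38), with its second usable probe set at 0.15. Eif4ebp2 read 373 and 388 (-0.055), and its 3 usable probe sets were all below the offset, down to -0.38. The 2 inhibitor genes thus lay on opposite sides of the offset in each of their usable probe sets, and the signals of Eif4ebp1 were dim. Eif4enif1, which carries eIF4E into the nucleus, read 293 and 261 (0.17).

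For the late steps of initiation, the probe sets used gave ratios between -0.17 and 0.088, but those of Eif5 disagreed. Eif5, which triggers GTP hydrolysis by eIF2, read 1092 in DBA/1 and 1232 in C57BL/6 (-0.17), and its 4 probe sets disagreed in sign, from -0.40 to 0.28. Eif5b, the GTPase that joins the ribosomal subunits, read 240 and 226 (0.088), and Eif6, which keeps the large subunit from joining early, read 495 and 469 (0.080). Eif5a, the hypusine-bearing factor that acts in elongation and termination in spite of its name, read 2807 and 2883 (-0.038), while its second probe set, at 897 and 645, gave 0.48; the mean of the 2 was 0.22 ± 0.36 (SD over 2 probe sets). Counting it with the elongation factors changed their median to 0.062.

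Repeat probe sets allowed a check of direction within genes. For 23 factor genes with at least 2 probe sets over the floor in each strain, all probe sets were above the offset in 8 genes and below it in 4, and 11 had probe sets on both sides. Over all 2325 such genes the shares were 27.3% all above and 30.8% all below. The offset was taken as the same at every signal, although the lowess curve put it higher for the factors. The 8 were Eef1akmt1, Eef1d, Eif1a, Eif2d, Eif3c, Eif3e, Eif4e2 and Eif4ebp1, and the 4 were Eif2b2, Eif4b, Eif4e3 and Eif4ebp2. Counted as probe sets instead of genes, 2 of 84 were at least 1.5-fold higher in DBA/1, 1 of Eef1akmt1 and 1 of Eif1a, and 0 in C57BL/6, beside 10.6% and 6.75% of all probe sets.

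The regulators and partners of the same pathway also differed little. The list holds 41 genes for the kinases of eIF2 and eEF2, the mTOR pathway, poly(A)-binding proteins, hypusine synthesis, termination and recycling, and mitochondrial translation; 37 had a probe set and 36 were above the floor. In the probe set used, none of the 36 was 1.5-fold higher in either strain, beside 11.8% of all genes in DBA/1 and 5.97% in C57BL/6. Their median log2 ratio was 0.078, with 22 above 0 and 14 below, and 17 were above the offset. Of all 6936 genes, 4206 were above 0 and 3586 above the offset. Atf4 read 866 in DBA/1 and 1038 in C57BL/6 (-0.26), but its second usable probe set gave -0.68, past 1.5-fold. Usable probe sets of the same gene disagreed in sign for Etf1 (-0.27 to 0.47) and Mknk1 (-0.25 to 0.35), among others. With the offset removed by any of 3 scalings (median centring, quantile normalization or lowess), Mtif2 passed 1.5-fold and was higher in C57BL/6 (-0.62 in each). The highest were Aimp1, a scaffold protein of the synthetase complex (442 in DBA/1 and 322 in C57BL/6, 0.46), Pabpc4, a poly(A)-binding protein (362 and 279, 0.37, with a second probe set at 0.040), and Tufm, the mitochondrial counterpart of eEF1A (88.7 and 68.9, 0.37). The lowest were Mtif2, the mitochondrial initiation factor (171 and 248, -0.54), Larp1, a binding protein of TOP messengers (261 and 359, -0.46), and Eif2ak2, the RNA-activated kinase of eIF2 (61.9 and 80.4, -0.38).

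Scaling moved the median of both classes. With the offset removed by median centring, the median was 0.044 for initiation and 0.0034 for elongation factors, and quantile normalization and lowess brought the initiation median to about 0 and the elongation median below it. After lowess the median over the 43 factors was -0.035, and over all genes it was 0.024. No factor passed 1.5-fold under any of these 3 scalings.

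**Figure D4:**
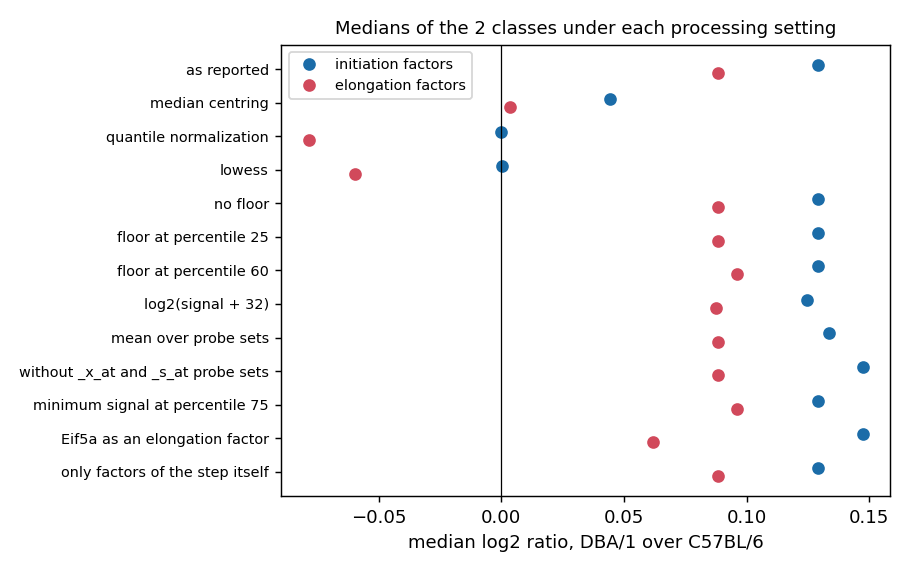
Median log2 ratio, DBA/1 over C57BL/6 (horizontal), of initiation (blue) and elongation (red) factor genes under the reported setting and each alternative (vertical). The elongation median was lower than the initiation median in each setting, by 0.033 to 0.086 on the log2 scale, and the 3 scalings moved both towards or past 0. All settings use the same 2 arrays, and median centring cannot change the difference, so the settings are not repeat measurements. From the probe error over all genes alone (0.31), this difference has a spread of 0.16.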

How the data were processed

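Biotin-labelled cRNA of 1 sample per strain was hybridised to 1 array each. The deposited values are probe set intensities; per the submitters' processing notes they were made with MAS5, with no version or scaling target stated. All 45 symbols matched a RefSeq gene table (GRCm38.p6) by Entrez identifier. No source used here gives the genome build behind the array design. Signals were floored at each array's median (percentile 50), and each gene was represented by its brightest probe set (by mean log2 signal). No test was possible; sizes were counted at 1.5-fold and 2-fold over all genes in the same way. The scripts were tested on simulated data with changes well past the 1.5-fold limit in bright genes. That test does not cover differences as small as those reported here. The precision is limited by the number of arrays.

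Named genes were the 8 highest and 8 lowest ratios, fixed core members (Eef1g, Eif4g1, Eif4ebp3, Eif2s1 and Eif5a2 had no probe set with that symbol alone), any gene with probe sets over 1.5-fold apart on both sides of 0, and the 3 highest and lowest of the pathway list. Other genes named complete a complex or, as for Atf4, have a second probe set past 1.5-fold. Members and lists were chosen with earlier results of these data known. Alternatives were 3 scalings, other floors (percentiles 25 and 60, or none), log2(signal + 32), other probe set choices, a minimum signal and other class definitions. Python 3.11.15, pandas and statsmodels (lowess, span 0.3) were used.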

Additional observations from a re-analysis of the deposited data

How the results depend on the processing

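No paired analysis was possible because each strain has 1 array. Leaving out a sample was likewise not possible. The count of factors past 1.5-fold, 0 in each direction, stayed 0 under the 3 scalings, the floor at percentile 60, log2(signal + 32), the mean over probe sets, the omission of probe sets with _x_at or _s_at suffixes and the minimum signal. Without a floor 1 gene, Eef1a2 (-0.80), was higher in C57BL/6. With the floor at percentile 25, 1 gene (Eef2kmt) was higher in DBA/1 and 2 (Eef1a2 and Eef1aknmt) in C57BL/6, all with signals under the usual floor on at least 1 array. With the limit at 1.2-fold, chosen after the data were seen, the counts were 11 and 1. The initiation median of 0.13 became 0.044 after median centring, -3.16e-05 after quantile normalization and 0.000415 after lowess, and the elongation median of 0.088 became -0.078 and -0.060 after the last 2. The difference between the class medians ran from -0.086 to -0.033 over the 12 alternatives, which all use the same 2 arrays. The spread of this difference from the probe error over all genes alone (0.31) was 0.16. Of the 36 genes of the pathway list, 1, Mtif2, passed 1.5-fold under each of the 3 scalings and 0 under the other alternatives. Of 312 values of named genes under an alternative, 308 moved by less than 0.31, the probe error over all genes, and 4 by more: Eif2s2 with the mean over probe sets (0.21), Eef1a2 in both floor settings above (-0.80) and Pabpc4 without suffixed probe sets (0.040). Against 0.19, the probe error over the factor genes, 13 moved by more, among them Eif3i (0.13) and Eif1ax (0.20) with the mean over probe sets, and Eif3e (0.22) and Eef1b2 (-0.24) after quantile normalization. The signs of Eef1a1, Eef2, Eif4a1, Eif4h, Eif5a and Eif6 changed under at least 1 alternative. MAS5 signals near background are unstable, and detection calls were not used here, which limits what can be said of the dim genes.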

Other observations

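Some translation factors were measured only by probe sets that the annotation pairs with several symbols, so they stand outside the counts above. The probe set of Eef1g, the structural gamma subunit of eEF1B, shared with Gm29753, read 2916 in DBA/1 and 3141 in C57BL/6, a log2 ratio of -0.11. The probe set of Eif4a3, the helicase of the exon junction complex, shared with Gm5576, read 734 and 743 (-0.016). The brightest of 3 probe sets shared by Eif3j1 and Eif3j2, genes of a loosely bound eIF3 subunit, read 546 and 553 (-0.018), and the dimmest 73.4 and 84.8 (-0.21). All 5 of these probe sets were slightly lower in DBA/1 as deposited, and none reached 1.2-fold. Of the genes left out by the rule, Eif2s3y, a Y-linked gene of the eIF2 gamma subunit, differed more: its 1 probe set read 458 in DBA/1 and 245 in C57BL/6, a log2 ratio of 0.90 (1.87-fold). The X-linked copy Eif2s3x read 745 and 647 (0.20). Both signals of Eif2s3y were above the floor. The sources used here do not give the sex of the mice, and the reason for the difference was not tested.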
